A study of Rattus norvegicus with 14 samples.

Results

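The apolipoproteins of very low density lipoprotein (VLDL) and high density lipoprotein (HDL) described here are Apob, Apoa1, Apoa2, Apoa4, Apoc1, Apoc3 and Apoe, taken by gene symbol from the platform's annotation of the array. All 7 genes had a row, with 15 of the 4502 probe sets of the table between them, and all 7 were among the 1909 features tested. Liver RNA of rats of the strains labelled Kyoto and Wistar had been hybridised to 14 Affymetrix arrays of 1 colour, 1 sample an array, after feeding of chow with 1% orotic acid, an intermediate of pyrimidine synthesis that produces a reversible fatty liver in rats. The groups were Kyoto rats at days 1, 3 and 14 of feeding (2 arrays each), Wistar rats at day 3 (2 arrays) and day 14 (3 arrays), and Wistar controls on standard chow (3 arrays), all from the left lateral liver lobe. No unfed Kyoto rats and no Wistar rats at day 1 were analysed here, so within the Kyoto strain each value is set against an earlier day of feeding and not against standard chow. The labels do not say in so many words that each array was a separate animal, and the p-values measure the spread between these samples.

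Hepatocytes build VLDL around a single molecule of apolipoprotein B, which is loaded with triglyceride in the endoplasmic reticulum and carried through the secretory pathway to the blood. Apolipoproteins A-I and A-II are the main proteins of HDL, and the small C apolipoproteins and apolipoprotein E move between particles and set how fast lipases and receptors act on them. Orotic acid feeding is known for fatty liver together with blocked release of VLDL, which is why the levels of these transcripts are of interest.

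Signals are given on the linear scale after quantile scaling between arrays, with low values set to a floor of 115, and differences are on the log2 scale from 1 limma fit of all 14 arrays, with ± standing for the standard error. The numbers of arrays limit the precision. Before the results, a few arrays need naming. The array labelled Wistar control 2 was most like Kyoto day 3 replicate 2 (r = 0.960 across features, which are not independent replicates), and Wistar day 14 replicate 3 was most like Wistar control 3 (r = 0.970). Both were kept in their labelled groups, and the Wistar differences the text turns on are also given without them. Least like the rest was Kyoto day 1 replicate 1 (median r = 0.895). Blank rows, 374 or 375 of them, occurred on that array, on Wistar control 3 and on the named Wistar day 14 array, none of them an apolipoprotein row. The lot batch was given as 1 for 11 arrays and missing for Wistar control 3, Wistar day 3 replicate 2 and Wistar day 14 replicate 3. Of 14 hepatocyte markers, 13 had a row, none lay at the floor on any array, and their summed signal ran from 205645 to 225789. Quantile scaling itself keeps a sum of abundant transcripts within a narrow range, so this sum cannot show whether the share of hepatocytes was steady.

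No apolipoprotein passed the adjusted threshold of 0.05 (limma) in any of the 8 comparisons. Of all features 3.25% passed between the fed strains, 0.0524% between Kyoto days 14 and 1, and 0% in each of the other 6. The sizes of the differences nevertheless separated the genes into those with large differences between days, Apoa4, Apoa1 and Apob, and those with small differences after quantile scaling, Apoa2, Apoc1, Apoc3 and Apoe. The second set lies near the top of each array, where this scaling leaves little but rank, so their small differences do not show stable levels. Under the authors' scaling Apoa2, Apoc1 and Apoc3 differed by -0.46, -0.43 and -0.40 at Wistar day 3 against control. Apoa4, which coats chylomicrons and HDL, and Apoa1, the principal HDL protein, had their lowest Kyoto signals at day 14. Apob had its highest Kyoto mean at day 14, but its day 1 and day 3 arrays disagreed with each other. In whole liver, fewer cells of a type and less RNA per cell cannot be told apart.

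**Figure D1:**
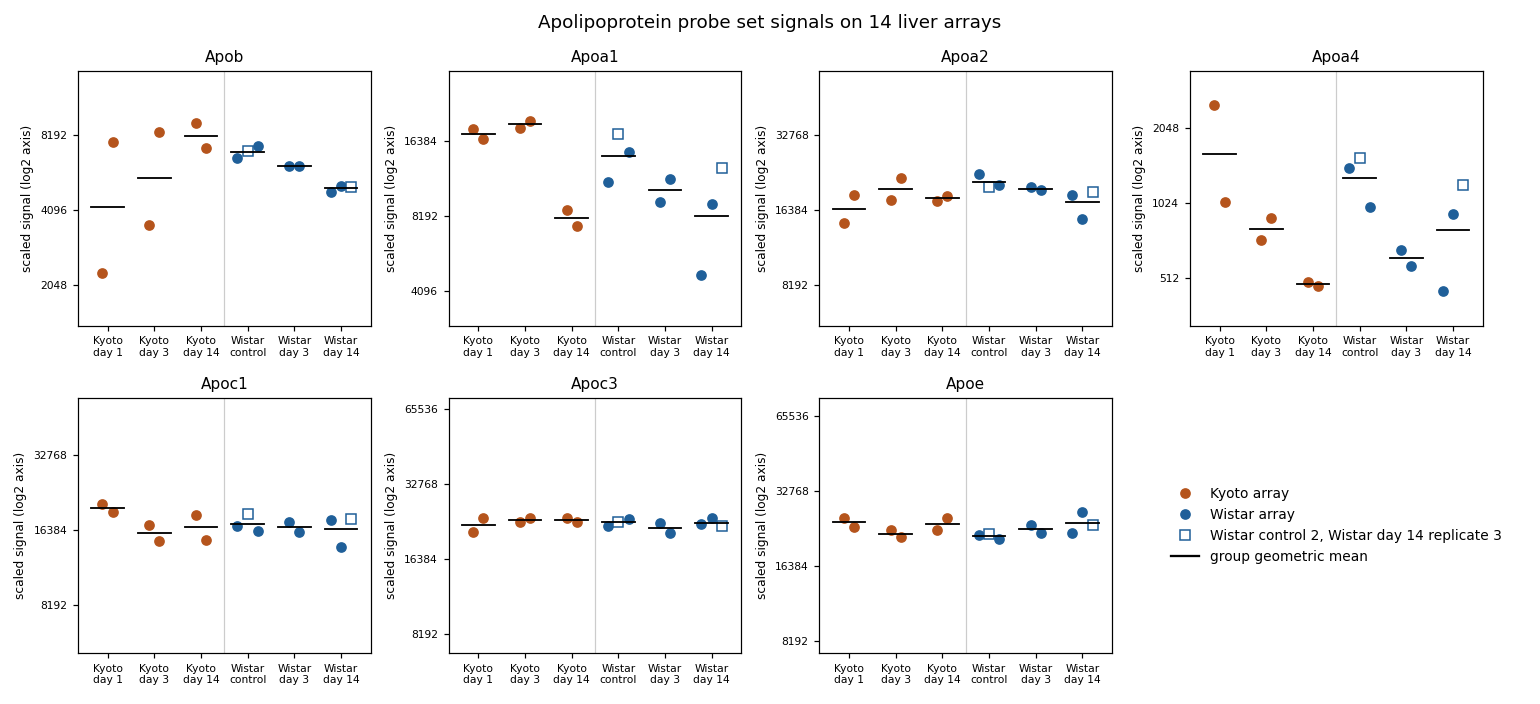
Scaled signal of the chosen probe set of each apolipoprotein gene on every array (log2 axis, each panel with its own range), with Kyoto groups left of Wistar groups. Points are arrays, open squares are Wistar control 2 and Wistar day 14 replicate 3, and bars are geometric means of a group. Apoa4 lies at 493 and 474 on the Kyoto day 14 arrays, below every other Kyoto array, while Apoc3 stays between 20779 and 23893 on all 14 arrays.

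Apob encodes the structural protein of VLDL and was represented by probe set M27440_at. Its signals were 2292 and 7726 at Kyoto day 1, 3577 and 8469 at Kyoto day 3, and 9157 and 7284 at Kyoto day 14. In Wistar livers they were 6646, 7095 and 7408 in controls, 6184 and 6200 at day 3, and 4877, 5148 and 5085 at day 14. After quantile scaling the Wistar groups were tight and did not overlap: all 5 fed arrays lay under all 3 controls, and the day 14 arrays lay under the day 3 arrays, a separation that 20.2% of all features showed between those 2 days. In the deposited signals the fed arrays also lay under the controls, but Wistar day 14 replicate 3, at 5929, lay above both day 3 arrays, at 5643 and 5588. The Kyoto pairs at days 1 and 3, in contrast, each held 1 low and 1 high array. The differences were -0.19 ± 0.41 at Wistar day 3 and -0.48 ± 0.36 at Wistar day 14 against control (adjusted p = 0.920 and 0.991), the second a 1.40-fold lower level. The standard error pools the spread of all 6 groups, the wide Kyoto ones among them, so it is far larger than the SD within the Wistar day 14 group, 0.04 log2 (n = 3). Between Kyoto days 14 and 1 the difference was 0.96 ± 0.45 (adjusted p = 0.492), and it was 0.08 without Kyoto day 1 replicate 1 and 1.83 without replicate 2. Ordered by mean log2 signal, the groups ran from Kyoto day 14 (12.996 ± 0.23 SD) over Wistar control (12.78 ± 0.08), Wistar day 3 (12.60 ± 0.0026), Kyoto day 3 (12.43 ± 0.88) and Wistar day 14 (12.30 ± 0.04) to Kyoto day 1 (12.04 ± 1.24). Only the step between Wistar control and Wistar day 3 was larger than the SDs of both neighbours.

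Apoa1 encodes apolipoprotein A-I, which takes up cholesterol from cells and activates lecithin cholesterol acyltransferase. Its chosen probe set, J02597cds_s_at, read 18410 and 16715 at Kyoto day 1, 18581 and 19695 at Kyoto day 3, and 8692 and 7512 at Kyoto day 14. Both day 14 arrays were thus lower than all 4 earlier Kyoto arrays. Wistar signals were 11256, 17565 and 14807 in controls, 9341 and 11592 at day 3, and 4750, 9215 and 12794 at day 14. After quantile scaling fed and control Wistar arrays overlapped, and the highest signal in controls was on Wistar control 2 and the highest at day 14 on replicate 3, the 2 arrays named above. In the deposited signals both day 3 arrays, at 8312 and 11717, lay under all controls, at 12079 to 27781, while day 14 still overlapped. The level at Kyoto day 14 was 2.37-fold lower than at day 3 (-1.24 ± 0.34, adjusted p = 0.689) and 2.17-fold lower than at day 1 (-1.12 ± 0.34, adjusted p = 0.247). With each of the 14 arrays left out in turn, the difference between days 14 and 3 stayed between -1.35 and -1.14. Against control, the differences were -0.80 ± 0.28 at Wistar day 14 (adjusted p = 0.893) and -0.46 ± 0.31 at Wistar day 3 (adjusted p = 0.643). Leaving out Wistar day 14 replicate 3 made the day 14 difference -1.11, leaving out replicate 1 made it -0.40, and without both named arrays it was -0.96.

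The other Apoa1 probe set, M00001_i_at, gave a like picture with a wider spread. It read 9580 and 7284 at Kyoto day 1, 10611 and 7244 at Kyoto day 3, and 3880 and 2173 at Kyoto day 14. In Wistar livers it read 7178, 11256 and 4817 in controls, 2503 and 5581 at day 3, and 1881, 3619 and 8048 at day 14. As in the first set, both Kyoto day 14 arrays lay below the 4 earlier ones. Fitted with every probe set as its own feature, the difference between Kyoto days 14 and 3 was -1.59 ± 0.58 (adjusted p = 0.898), and against control it was -0.94 ± 0.48 at Wistar day 14 and -0.97 ± 0.53 at Wistar day 3. Single arrays moved these values widely. At day 14 it was -0.44 without replicate 1 and -1.48 without replicate 3, and at day 3 it was -0.39 without replicate 1 and -1.54 without replicate 2. Without both named arrays it was -1.17 at day 14 and -0.65 at day 3.

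Apoa2 encodes apolipoprotein A-II, the second protein of HDL. Its signals were 14569 and 18839 at Kyoto day 1, 18024 and 22003 at Kyoto day 3, and 17842 and 18581 at Kyoto day 14. Wistar signals were 22836, 20210 and 20611 in controls, 20210 and 19695 at day 3, and 18728, 15125 and 19360 at day 14. After quantile scaling all 3 day 14 arrays lay below all controls, by a small margin, though in the deposited signals replicate 3 lay above them. The difference was -0.26 ± 0.14 (adjusted p = 0.963), with a 95% interval of -0.56 to 0.03. It was -0.37 without both named arrays and -0.15 without Wistar day 14 replicate 2. The other differences of Apoa2 lay between -0.18 and 0.27, and their groups overlapped except between Wistar days 14 and 3. Under the authors' own scaling that last difference had the opposite sign, 0.03 against -0.18.

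Apoa4 encodes apolipoprotein A-IV, made in intestine and, in rats, also in liver, and it had the largest differences of the chosen probe sets. Signals of M00002_at were 2525 and 1032 at Kyoto day 1, 727 and 891 at Kyoto day 3, and 493 and 474 at Kyoto day 14. Both arrays of each later day were below both arrays of the earlier ones. In Wistar livers the signals were 1415, 1549 and 986 in controls, 661 and 572 at day 3, and 451, 920 and 1204 at day 14. Both day 3 arrays lay under every control, and the day 14 arrays spread from below the day 3 pair into the control range. The level was 3.34-fold lower at Kyoto day 14 than at day 1 (-1.74 ± 0.45, unadjusted p = 0.00183, adjusted p = 0.157). It was 2.10-fold lower at Wistar day 3 than in controls (-1.07 ± 0.41, adjusted p = 0.372), and this difference kept its sign under all 28 alternatives run, between -1.27 and -0.92. Within lot batch 1 the only Wistar day 3 array, at 661, lay below both controls of that lot, at 1415 and 1549. At Wistar day 14 the difference was -0.70 ± 0.37 (adjusted p = 0.963), -0.30 without replicate 1 and -1.005 without replicate 3. The Kyoto day 1 arrays are far apart themselves, and the difference between days 14 and 1 was -1.09 without the first and -2.39 without the second.

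Apoa1, Apoc3 and Apoa4 follow each other on rat chromosome 8, with Apoa5 next to Apoa4, and Apoc4, Apoc1 and Apoe follow each other on chromosome 1. Apob lies on chromosome 6 and Apoa2 on chromosome 13. RefSeq promoter windows of the GRCr8 build, 250 bases before to 50 after the listed start, were found for Apoa4, Apoc1 and Apoe, 3 of the 7 genes. The window of Apoa4, the gene with the largest differences, is shown first, and that of Apoc1, a gene with small differences after quantile scaling, second. Apoa4 lies at chr8:55435529-55435828 on the plus strand and Apoc1 at chr1:88478256-88478555 on the minus strand. Capitals mark matches to the 5 motifs searched on both strands: AGGTCA and GGGTCA, half-sites of nuclear receptors, CAAAGTCCA, a core of the site of HNF4A, a liver nuclear receptor known to act on apolipoprotein genes, and the TATA box letters TATAAA and TTTAAA.
Apoa4: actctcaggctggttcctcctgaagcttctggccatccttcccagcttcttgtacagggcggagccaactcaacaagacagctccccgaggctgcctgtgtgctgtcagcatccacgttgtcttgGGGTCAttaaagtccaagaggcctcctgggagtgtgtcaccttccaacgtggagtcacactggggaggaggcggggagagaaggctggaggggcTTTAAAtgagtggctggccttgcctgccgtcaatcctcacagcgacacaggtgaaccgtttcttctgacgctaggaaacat
Apoc1: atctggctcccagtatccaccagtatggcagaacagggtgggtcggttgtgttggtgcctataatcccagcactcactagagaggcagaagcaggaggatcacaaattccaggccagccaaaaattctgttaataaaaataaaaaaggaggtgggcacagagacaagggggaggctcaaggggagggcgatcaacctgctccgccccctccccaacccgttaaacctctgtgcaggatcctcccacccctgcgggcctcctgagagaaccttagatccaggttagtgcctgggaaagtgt
The Apoa4 window held GGGTCA at position -125 and TTTAAA at position -31 relative to the listed start, and the Apoc1 window held none of the 5. Of 3 Apoe windows, 2 held GGGTCA. Among 33469 rat windows of the same length, 13.8% held GGGTCA, 13.6% TTTAAA, 16.2% AGGTCA, 14.2% TATAAA and 0.391% CAAAGTCCA. These matches describe letters only, and nothing on binding follows from them.

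Apoc1 encodes apolipoprotein C-I, which slows the uptake of triglyceride-rich particles. Its signals were 20779 and 19195 at Kyoto day 1, 17127 and 14807 at Kyoto day 3, and 18728 and 14936 at Kyoto day 14. They were 16884, 18839 and 16135 in Wistar controls, 17565 and 15996 at Wistar day 3, and 17842, 13929 and 18024 at Wistar day 14. After quantile scaling both Kyoto day 1 arrays stood above all other arrays, and all other groups overlapped. In the deposited signals they did not stand apart, at 16456 and 16542 within a range of 10999 to 30828. Under the authors' scaling the differences from Kyoto day 1 were -0.06 at day 3 and -0.12 at day 14. The differences from Kyoto day 1 were -0.33 ± 0.17 at day 3 and -0.26 ± 0.17 at day 14 (adjusted p = 0.788 and 0.627). Against Wistar control the difference was -0.04 ± 0.16 at day 3 and -0.07 ± 0.14 at day 14, the second with a 95% interval of -0.36 to 0.23.

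Apoc3 encodes apolipoprotein C-III, an inhibitor of lipoprotein lipase. J02596cds_at read 21015 and 23893 at Kyoto day 1, 23104 and 23893 at Kyoto day 3, and 23893 and 23104 at Kyoto day 14. In Wistar livers it read 22268, 23104 and 23581 in controls, 22836 and 20779 at day 3, and 22532, 23893 and 22268 at day 14. The groups overlapped in each of the 6 pairwise day and control comparisons, with differences of at most -0.08 ± 0.11, at Wistar day 3 against control. The scaling sets how close these values lie: the deposited signals ran from 16560 to 41730, and under the authors' scaling the difference at Wistar day 3 was -0.40. The other 2 Apoc3 sets spread more: J02596cds_g_at lay between 12475 and 21841 on the 14 arrays. AI169758 (rc_AI169758_at) read 2619 and 2672 at Wistar day 3 against 4344, 4565 and 3670 in controls, without overlap. That difference was -0.66 ± 0.24 (1.58-fold lower, unadjusted p = 0.0156, adjusted p = 0.329 with every probe set as its own feature), whereas the chosen set differed by -0.08.

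Apoe encodes the apolipoprotein E ligand of lipoprotein receptors. S76779_s_at read 25566 and 23581 at Kyoto day 1, 22836 and 21429 at Kyoto day 3, and 22836 and 25566 at Kyoto day 14. Wistar signals were 21841, 22003 and 21015 in controls, 23893 and 22268 at day 3, and 22268, 27066 and 23893 at day 14. After quantile scaling all 5 fed Wistar arrays lay above all 3 controls. In the deposited signals they overlapped, with 24993, 35282 and 20859 in controls against 19753 and 26235 at day 3 and 22271, 20153 and 44601 at day 14. The differences were 0.09 ± 0.12 at day 3 and 0.17 ± 0.11 at day 14 (adjusted p = 0.844 and 0.991). Apoe was the only one of the 7 genes with a higher mean than control at both days. Under the authors' scaling, however, its day 3 difference had the opposite sign, -0.21, and its day 14 difference was 0.04. The other Apoe set, X04979_at, did not separate the groups: it differed by 0.11 ± 0.22 and 0.01 ± 0.20 in the same comparisons. Its lowest signal of all, 10981, was on Kyoto day 1 replicate 1.

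The order of the groups by mean log2 signal shows how few neighbours stood clear of each other. Apoa1 ran from Kyoto day 3 (14.22 ± 0.06 SD) over Kyoto day 1 (14.10 ± 0.10), Wistar control (13.80 ± 0.32), Wistar day 3 (13.35 ± 0.22) and Wistar day 14 (13.01 ± 0.73) to Kyoto day 14 (12.98 ± 0.15), and only the first and the third step exceeded the SDs of both neighbours. Apoa4 ran from Kyoto day 1 (10.66 ± 0.91) over Wistar control (10.34 ± 0.35), Kyoto day 3 (9.65 ± 0.21), Wistar day 14 (9.63 ± 0.73) and Wistar day 3 (9.26 ± 0.15) to Kyoto day 14 (8.92 ± 0.04). Its steps below Wistar control and above Kyoto day 14 exceeded both SDs. Among the neighbours of Apoa2, Apoc1, Apoc3 and Apoe, only Kyoto day 1 and Wistar control of Apoc1 (14.29 ± 0.08 and 14.07 ± 0.11) were further apart than both SDs. In the deposited signals that pair had the opposite order, with means of 16499 at Kyoto day 1 and 21697 in Wistar controls.

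The first pair of comparisons asks how the transcripts differ between orotic acid and standard chow in Wistar livers. At day 3 of feeding 6 of the 7 apolipoproteins had a lower mean than in controls and Apoe a higher one (lower under the authors' scaling), with a median difference of -0.09 against -0.04 over all 1909 features. None of the 7 passed the adjusted threshold (limma), nor did any other feature, 0% in all, and 1 gene, Apoa4, had an unadjusted p under 0.05, as did 200 features. The groups of 3 members, Apob, Apoa4 and Apoe, did not overlap, where 34.2% of all features showed no overlap between 2 and 3 arrays. In the deposited signals those of Apoe did overlap, and those of Apoa1 did not. At day 14 again 6 of 7 means were lower than in controls, with a median of -0.26 against -0.02 over all features. None of the 7 passed, nor did any other feature (0%), with an unadjusted p under 0.05 for Apoa1 among 99 features in all. The groups of Apob, Apoa2 and Apoe did not overlap, against 9.95% of features, but those of Apoa2 and Apoe did in the deposited signals. Both comparisons use the same 3 control arrays, so their signs are not independent of each other. Without Wistar control 2 and Wistar day 14 replicate 3, Apoa4 differed by -0.94 at day 3 and -0.87 at day 14, Apoa1 by -0.31 and -0.96, and Apob by -0.18 and -0.49. Between Wistar days 14 and 3, 4 means were lower and 3 higher (2 lower under the authors' scaling), 0% of features passed, and the members' smallest adjusted p was 0.993. Apoa4 differed there by 0.37 ± 0.41, and by 0.069 without Wistar day 14 replicate 3.

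**Figure D2:**
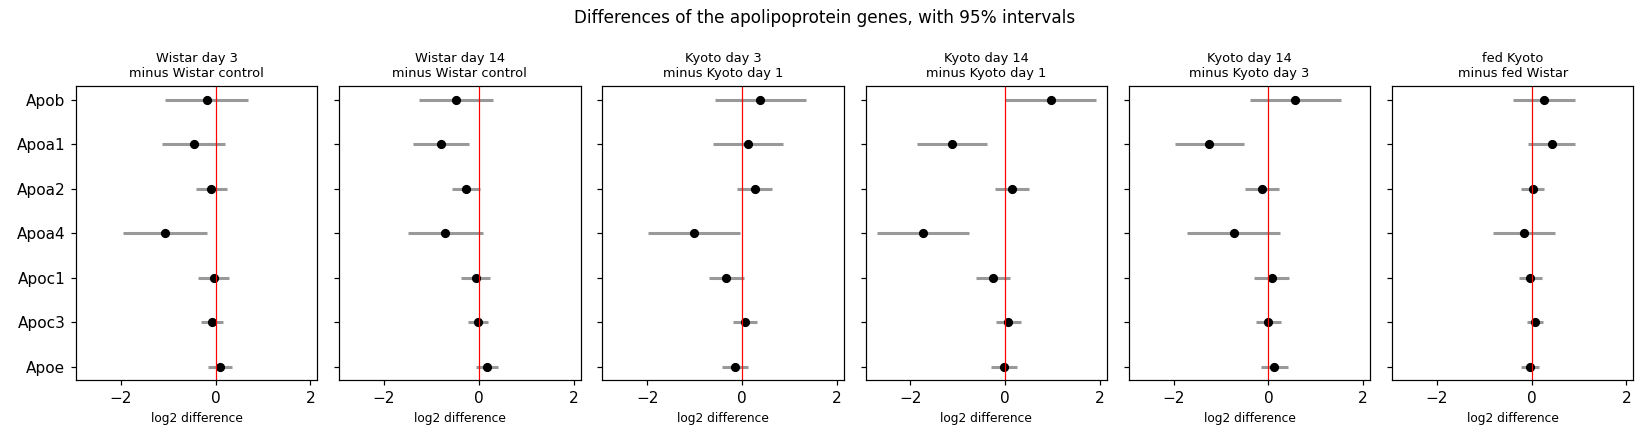
Log2 difference of each apolipoprotein gene in 6 of the 8 comparisons (x axis; Wistar day 14 minus day 3 is not drawn), with 95% intervals from the limma fit of 14 arrays as grey bars. Apoa4 lies left of 0 in every panel, and Apoa1 in every panel but those of the strains and of Kyoto days 3 and 1 (0.12). The intervals of Apoc3 and Apoe hold 0 in each panel.

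In Kyoto livers the comparisons follow 3 days of feeding. Between days 3 and 1, 4 of the 7 means were higher and 3 lower (2 lower under the authors' scaling). None passed, nor did any other feature (0%). Apoa4 alone of the 7 had an unadjusted p under 0.05 in limma, as did 111 features in all, with a difference of -1.005 ± 0.45 (adjusted p = 0.783). With replicate 1 of day 1 left out it came to -0.36, and with replicate 2 left out to -1.65. The groups of 4 members, Apoa1, Apoa4, Apoc1 and Apoe, did not overlap, where 28.1% of all features did not. Those of Apoe overlapped in the deposited signals. Between days 14 and 1, Apoa4 (-1.74) and Apoa1 (-1.12) had an unadjusted p under 0.05, none of the 7 passed, and 0.0524% of features did, which is 1 feature, among 192 unadjusted. Groups of 3 members, Apoa1, Apoa4 and Apoc1, did not overlap, where 38.1% of all features did not. Those of Apoc1 overlapped in the deposited signals. Stellate cell and fibroblast markers had lower means too in this comparison, 7 of 7 tested (median -0.92), 0 called and 3 with an unadjusted p under 0.05. Their summed signal was 11839 to 13566 at day 1, 7087 to 9594 at day 3 and 9406 to 9439 at day 14, and their part in the apolipoprotein differences was not tested. One array decides much here: without Kyoto day 1 replicate 2, the difference was 1.83 for Apob and -2.39 for Apoa4. The lone day 1 array left is then replicate 1, the array least like the rest. Its group is assumed to vary like the others, so calls from that fit are not relied on. Between days 14 and 3, which do not use day 1, Apoa1 had the smallest p (unadjusted 0.00270, adjusted 0.689) and 0% of features passed, with 88 unadjusted. Apoa1 and Apoa4 were the members without overlap there, against 41.8% of features.

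The strains were compared over days 3 and 14 together, as the mean of the differences at each day. No apolipoprotein passed, whereas 3.25% of all features did, 24 of them higher and 38 lower in fed Kyoto livers. All 7 members overlapped between the strains. Apoa1 differed by 0.42 ± 0.23 (adjusted p = 0.446), Apob by 0.26 ± 0.30, Apoa4 by -0.16 ± 0.31, and the other 4 by between -0.04 and 0.07, with 95% intervals such as -0.22 to 0.27 for Apoa2 and -0.22 to 0.15 for Apoe. Under the authors' scaling 5 of the 7 were lower in fed Kyoto livers, and the signs of Apoa2 (-0.13) and Apoc3 (-0.11) were turned. Without Wistar control 2 and Wistar day 14 replicate 3 the Apoa1 difference was 0.58. The difference of the day 14 minus day 3 differences between the strains was also fitted. It was -1.10 ± 0.61 for Apoa4, -0.91 ± 0.46 for Apoa1 and 0.87 ± 0.61 for Apob, with 0 of 7 members and 0% of features past the threshold and a smallest adjusted p of 0.854 among the members. Without the same 2 arrays it was -0.59 for Apoa1 and -0.80 for Apoa4. The lower signals of Apoa1 and Apoa4 at Kyoto day 14 are therefore not shown to differ from the course in Wistar livers.

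The scaling between arrays matters for abundant transcripts. Apoa2, Apoc1, Apoc3 and Apoe lay between the 98.7th and the 100th percentile of each array in their chosen probe sets, where quantile scaling leaves little more than rank. In the deposited signals Wistar control 2 and Wistar day 14 replicate 3 were the brightest for Apoe, at 35282 and 44601, with 19753 to 26235 on the other 12 arrays. The same 2 arrays also had the brightest spiked hybridisation control (CreX 3' probe set, 7551 to 32670 over the arrays). Under the authors' scaling all 7 genes had lower means at Wistar day 3 than in controls, with a median of -0.46, and the median of all features moved to -0.18. Its all-feature median was also 0.11 between Wistar days 14 and 3 and between Kyoto days 3 and 1, and -0.17 for the difference between the strains' courses. Relative to that shift the direction of Apoa1 (-0.79), Apoa4 (-1.21) and Apob (-0.51) was kept, while Apoe (-0.21) lay close to it. With arrays set to equal trimmed means 6 of 7 were lower, as in the quantile scaling.

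**Figure D3:**
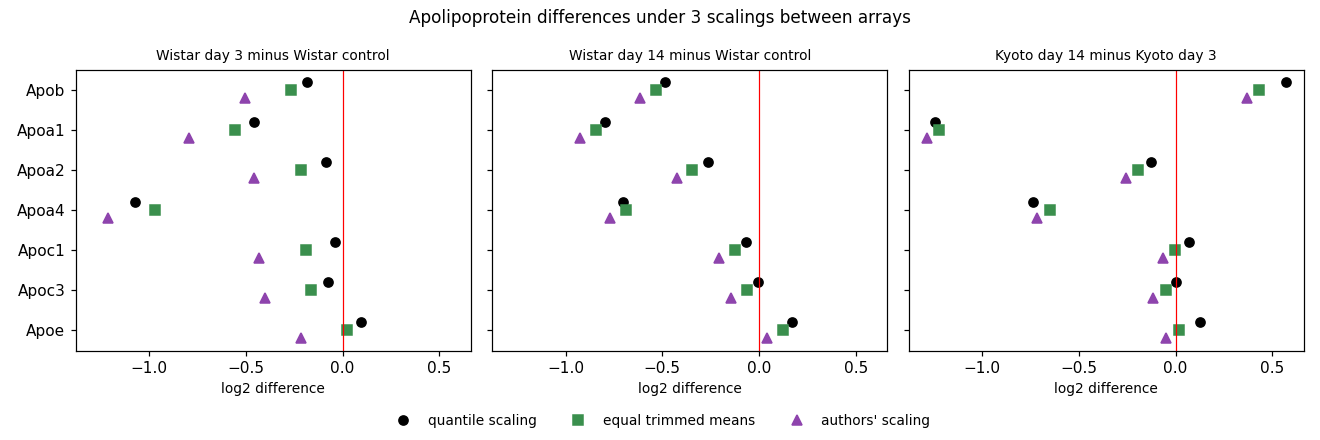
Log2 difference of each apolipoprotein gene (x axis) in 3 comparisons under quantile scaling, equal trimmed means and the authors' scaling. Apoa1 and Apoa4 stay left of 0 in all 3 panels under each scaling, while Apoe changes side at Wistar day 3 (0.09 against -0.21 under the authors' scaling).

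Apob had 5 probe sets, which differed in their course over the groups. U53873 (U53873cds_at) read 1113 and 2352 at Kyoto day 1, 174 and 1574 at Kyoto day 3, and 1421 and 1696 at Kyoto day 14. In Wistar livers it read 299, 671 and 410 in controls, 2755 and 5098 at day 3, and 750, 307 and 1133 at day 14. Both day 3 arrays were above every other Wistar array, by 3.11 ± 0.75 against control, 8.62-fold (unadjusted p = 0.00111, adjusted p = 0.139 with every probe set as its own feature), and day 14 differed from day 3 by -2.55 ± 0.75. With only the 2 groups in the fit the adjusted p of the first difference was 0.0213, and with array weights it was under 0.05 as well. AA997806 (rc_AA997806_at), by contrast, read 911 and 6219 at Kyoto day 1, 4044 and 3846 at Kyoto day 3, and 5699 and 5186 at Kyoto day 14. Its Wistar signals were 4679, 4877 and 4322 in controls, 4690 and 5126 at day 3, and 4551, 5537 and 3029 at day 14, all overlapping. As in M27440_at, Kyoto day 1 replicate 1 was by far the lowest array. The sets M14952mRNA_at and M21842_at were at the floor on 6 and 9 of 14 arrays and were not tested. They read 209 and 491, and 278 and 423, at Wistar day 3, against at most 164 and at the floor of 115 in controls.

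All 15 probe sets of the 7 genes were set against the ratio of the 5' to the 3' probe set of the Gapdh control, a usual measure of how complete the labelled RNA is. This ratio was 0.625 to 0.797 at Kyoto day 1, 0.438 to 0.685 at Kyoto day 3 and 0.649 to 0.736 at Kyoto day 14. In Wistar livers it was 0.296 to 0.559 in controls, 0.742 to 0.860 at day 3 and 0.459 to 0.812 at day 14. It was thus higher on both Wistar day 3 arrays than on any control. The same ratio of the actin control overlapped, with 0.695 and 0.793 at Wistar day 3 against 0.507 to 0.722 in controls, and it was highest, 0.881 and 0.947, on 2 Wistar day 14 arrays where U53873 read 750 and 1133. Over the 14 arrays, U53873 was higher where the ratio was higher (Pearson r = 0.81, permutation p = 0.00043, adjusted over 15 probe sets 0.00645; Spearman rho = 0.80, permutation p = 0.00126, adjusted 0.0189). Without the 2 arrays farthest from the median ratio, Wistar control 1 and Kyoto day 3 replicate 1, r was 0.78. Within the strains it was 0.79 over 6 Kyoto arrays and 0.83 over 8 Wistar arrays. M27440_at (r = -0.03) and AA997806 (r = -0.29) showed no such relation, and of the other 14 probe sets none had an adjusted permutation p under 0.05 for either coefficient. The next smallest p-values were those of the 2 remaining Apob sets, which lay at the floor on 6 and 9 arrays. M14952mRNA_at had a Spearman rho of 0.67 (permutation p = 0.0113, adjusted 0.0847) and M21842_at of 0.63 (permutation p = 0.0177, adjusted 0.0886). This relation was looked for after the values were seen. The permutations shuffled all 14 arrays across strain and day groups, so their p-values do not allow for differences between groups. The part of this relation in the U53873 difference was not tested, and the position of the probes along the Apob transcript was not used here.

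**Figure D4:**
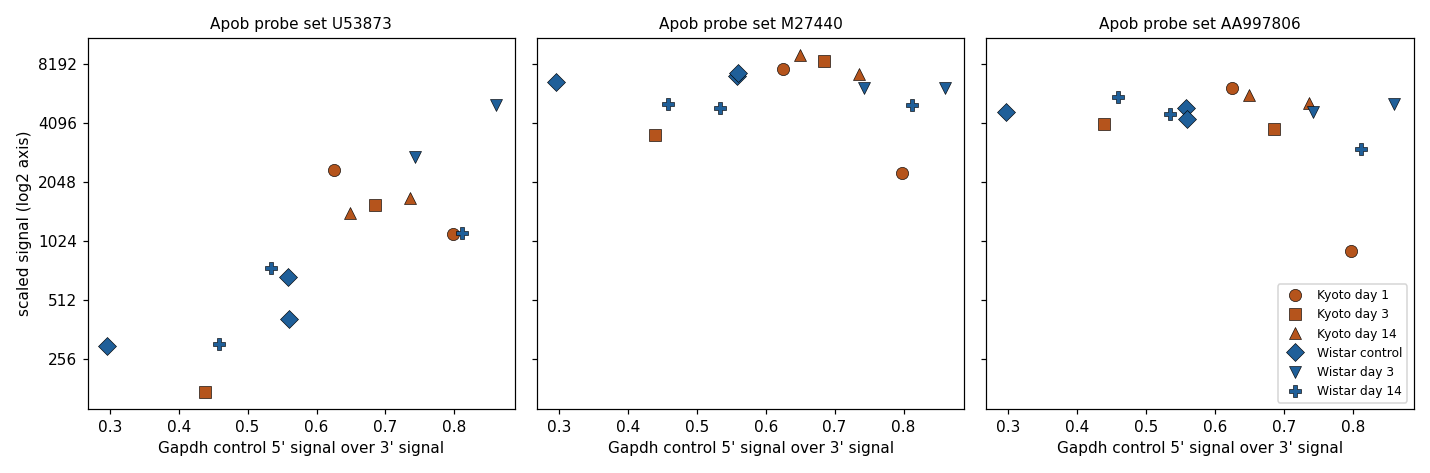
Scaled signal of 3 Apob probe sets (log2 axis) against the ratio of the 5' to the 3' signal of the Gapdh control, 1 point an array. U53873cds_at climbs with the ratio, from 174 and 299 at ratios of 0.438 and 0.296 to 5098 at a ratio of 0.860, while the low points of M27440_at (2292) and AA997806 (911) are both Kyoto day 1 replicate 1.

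Patterns over the arrays were compared by correlation of log2 signals over all 14 arrays, given as a description, since the arrays share strain and day groups and scaling. Among the members, Apoa1 and Apoa4 were most alike by Pearson (0.67, Spearman 0.61), and Apob and Apoc3 by Spearman (0.64, Pearson 0.58). Apob and Apoa2 had 0.64 and 0.40, and Apoa2 and Apoe ran opposite after quantile scaling (-0.79 and -0.75). In the deposited signals, however, both were highest on the same arrays. Apoa2 and Apoe read 32676 and 35282 on Wistar control 2, and 33933 and 44601 on Wistar day 14 replicate 3. Correlations of Apoa2, Apoc1, Apoc3 and Apoe, here and below, rest on signals where this scaling leaves little but rank. Among all tested features with 1 symbol, the pattern most like Apoa4 was that of Plin2, a lipid droplet coat protein (0.82 and 0.81), followed by Oaz2 (0.79 and 0.79) and Rpp21 (0.78 and 0.82). Apoa1 was most like Slc40a1, the iron exporter (0.79 and 0.71), Cyp2c7, a cytochrome P450 (0.79 and 0.61), and Tmsb4x (0.79 and 0.80). For Apob these were Dnaja1, a co-chaperone (0.85 and 0.66), Cd59b (0.84 and 0.63) and Plrg1 (0.83 and 0.78). Apoa2 was nearest to Pros1, the anticoagulant protein S (0.91 and 0.81), Agtr1a, an angiotensin receptor (0.89 and 0.89), and Copb2, a coat protein of Golgi vesicles (0.86 and 0.68). Apoc1 was nearest to Cyp1a2 (0.77 and 0.72), Cand1 (0.75 and 0.72) and Cfp (0.74 and 0.75), Apoc3 to Nqo1 (0.93 and 0.90), Cyp2j3 (0.88 and 0.70) and Ndufb9 (0.85 and 0.55), and Apoe to Tpm1 (0.83 and 0.74), Psmd2 (0.74 and 0.77) and F10, a clotting factor (0.71 and 0.71). No apolipoprotein was among the 3 nearest of another.

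The genes that assemble, remodel, take up or regulate these particles were described from 5 lists of 104 genes, of which 51 had a row and 37 were tested. Mttp, the lipid transfer protein of VLDL assembly, and Apoc2 had no row. In fed Kyoto against fed Wistar livers 2 of the 37 passed, both lower, beside 3.25% of all features. They were Acat2, here the acetyl-CoA acetyltransferase of early cholesterol synthesis and not the sterol esterifying enzyme of that name (-1.40 ± 0.29, adjusted p = 0.0170), and Acsl1, which activates fatty acids (-0.84 ± 0.19, adjusted p = 0.0309). Acat2 read 493, 365, 280 and 465 on the fed Kyoto arrays of days 3 and 14 against 886, 1051, 1518, 1004 and 868 on the fed Wistar arrays, with 384 on Wistar control 2, and 1046 and 777 on the other controls. Acsl1 read 2440, 1408, 2895 and 3234 on the fed Kyoto arrays, against 4817, 4447, 4630, 3961 and 3241 on the fed Wistar arrays. The fed strains did not overlap for either gene, as for 8.85% of all features. In the other 7 comparisons 0 of the 37 passed.

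Among genes of VLDL assembly and secretion, 10 of 13 tested had higher means at Wistar day 3 than in controls (median 0.50, against -0.04 over all features) and 11 of 13 at Wistar day 14 (median 0.28, against -0.02), none past the threshold. This list includes general chaperones of the endoplasmic reticulum, such as Hsp90b1 and Hspa5, and was chosen with earlier results of these data known. It also holds Acat2, the enzyme of cholesterol synthesis named above. Acat2 averaged 968 at Wistar day 3 and 1130 at day 14, against 736 in controls. The counts are therefore not those of genes particular to VLDL. Hsp90b1, a chaperone of the endoplasmic reticulum, read 5768 and 14113 at Wistar day 3 and 8526, 2321 and 3376 at day 14, against 2200, 2546 and 1524 in controls. It differed by 2.14 ± 0.47 at day 3 (adjusted p = 0.0981) and 0.99 ± 0.42 at day 14 (adjusted p = 0.893), and its day 3 arrays did not overlap the controls. Hspa5, the chaperone BiP, differed by 1.16 ± 0.43 and 0.78 ± 0.39. From the other lists, Hdlbp, an RNA-binding protein named for HDL binding (0.86 ± 0.27 at day 3), and Nr1h4, the bile acid receptor (-0.57 ± 0.25 at day 14), were next to these among the 3 smallest p-values. P4hb, the partner subunit of Mttp, averaged 7028 ± 1414 at Wistar day 3 (SD, n = 2) and 7180 ± 1375 at Wistar day 14 (n = 3), against 5739 ± 832 in controls (n = 3). Apobec1, which edits the Apob transcript in rat liver, was at or near the floor and was not tested. It read 115 on both Wistar day 3 arrays and 115, 115 and 174 at Wistar day 14, against 165, 212 and 139 in controls.

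Between Wistar days 14 and 3 the smallest p-values of the lists were those of Onecut1, a liver transcription factor (-1.60 ± 0.46), Hsp90b1 (-1.15 ± 0.47) and Hdlbp (-0.53 ± 0.27). In Kyoto livers they were those of Acsl1 (-0.77 ± 0.28), the chaperone and apolipoprotein clusterin, Clu (-0.56 ± 0.21), and Hnf4a (-1.05 ± 0.41) between days 3 and 1. Foxa2, a liver transcription factor (1.49 ± 0.47), Sdc1, a proteoglycan that takes up remnant particles (-0.79 ± 0.26), and Apom (-0.81 ± 0.27) came first between days 14 and 1. Between days 14 and 3 they were Acsl1 (0.72 ± 0.28), Clu (0.50 ± 0.21) and Foxa2 (1.00 ± 0.47). In the difference between the strains' courses they were Onecut1 (2.63 ± 0.68), Acsl1 (0.97 ± 0.39) and Foxa2 (1.58 ± 0.63), all with an adjusted p above the threshold. Of the other named genes, Apom, an HDL protein, had Kyoto means (± SD of 2 arrays) of 5310 ± 2258 at day 1, 4233 ± 56.3 at day 3 and 2896 ± 402 at day 14, while its Wistar group means were 4147 to 4629. Apoh averaged 10571 to 12640 over the 6 groups, Lcat 3494 to 5088, Lipc, the hepatic lipase, 2050 to 2664, and Scarb1, the HDL receptor, 611 to 989.

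Markers of other liver cells were summed beside these results. Kupffer cell and macrophage markers, of which 9 of 19 entered the sum, ran from 8458 to 11247 on the Kyoto arrays of days 3 and 14 and from 6950 to 8610 on the fed Wistar arrays. Of 8 tested, 6 had higher and 2 lower means in fed Kyoto than in fed Wistar livers. Ctss and Lgals3 passed, both higher (0.84 ± 0.17 and 0.82 ± 0.19, adjusted p = 0.0138 and 0.0324 in limma), where 3.25% of all features passed. Stellate cell and fibroblast markers (9 of 14) summed to 10126 to 10756 at Wistar day 3 and 6792 to 9374 at Wistar day 14, against 6120 to 9785 in controls. Of 8 intestinal markers, 5 had a row and 2 to 4 of these were at the floor on each array. Of 2 tested, Cdh17, a cadherin, was higher in fed Kyoto than in fed Wistar livers (1.66 ± 0.27, adjusted p = 0.00596), and the other had a lower mean. The 3 cholangiocyte, 3 endothelial and 2 lymphocyte markers that entered a sum came to at most 966, 694 and 440, and the 4 erythroid ones to between 7995 and 21743. The part of other cells in the apolipoprotein values was not tested.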

How the data were processed

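Rat liver RNA was measured on 14 Affymetrix arrays of 1 colour. The deposited values are signal intensities per probe set. Per the submitters' processing notes the authors used MAS5. Its version and scaling target were not given in the sources used here. Of 4502 rows, 24 control rows and 375 rows with a blank on any array were left out, which left 4110. The arrays' 2% trimmed means ran from 870 to 1089, a spread of 25.1%, above the limit of 5%, so log2 intensities were quantile scaled, and values under the 25th percentile (115) were set to it. A gene was represented by its brightest probe set (3181 features), and the upper 60% by mean, 1909, were tested. The platform's annotation gave 3700 probe sets 1 symbol, 229 several and 573 none, and 3688 IDs matched RefSeq with 0 symbols changed.

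Differences came from limma 3.58.1 (R 4.3.3, lmFit and eBayes with an intensity trend, 6 group means, 8 residual degrees of freedom), two-sided, Benjamini-Hochberg adjusted over all features, threshold 0.05. Correlations and permutation tests (100000 resamples) used scipy 1.17.1 in Python 3.11.15. Groups came from the labels. The code was tested on simulated data. Members and lists were chosen with earlier results of these data known. Besides the 7 members, up to 4 list genes past the threshold were named per comparison, or the 3 with the smallest p, and 10 genes for their levels. Likeness took the 3 features with the highest Pearson correlation. Alternatives changed the scaling, floor, filter, probe set rule, variance model, array weights, lot and blank-row blocks, samples in the fit, and left out each array in turn or the 2 named ones together.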

Additional observations from a re-analysis of the deposited data

Results flagged for a closer look

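Apob probe sets outside the tested set of 1 per gene carried signal at Wistar day 3 above the controls. U53873cds_at averaged 3927 at Wistar day 3 against 460.1 in controls, and this difference is described with its fit above. M14952mRNA_at averaged 350.0 at Wistar day 3 against 131.4 in controls, and M21842_at 350.3 against the floor of 115.1. The floor makes the control values of these sets bounds, and neither was tested between groups. The 5' to 3' ratio of the Gapdh control was also higher on both Wistar day 3 arrays than on the controls, while that of the actin control overlapped (0.695 and 0.793 against 0.507 to 0.722). Over the 14 arrays M14952mRNA_at and M21842_at had a Spearman rho of 0.67 and 0.63 with the Gapdh ratio (adjusted permutation p = 0.0847 and 0.0886). The part of RNA completeness in these signals was not tested. In M14952mRNA_at the day 14 minus day 3 difference was 0.20 in Kyoto livers and -1.31 in Wistar livers, with every array of each strain moving its own way. That difference between the strains was not tested and rests on values at or near the floor. No group held enough arrays for a check of single arrays against the rest of their group.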

How the results depend on the processing

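The count of members past the threshold was 0 in 7 of the 8 comparisons under all 28 alternatives. Between Kyoto days 14 and 1 it ran from 0 to 2 with arrays left out in turn, the 2 being Apob and Apoa4 without Kyoto day 1 replicate 2. Of 1568 member values (56 differences under 28 alternatives), 70 changed sign, and 5 of these lay more than 1 standard error from 0 before or after the change. Under the authors' scaling Apoa2 between Wistar days 14 and 3 was 0.030 against -0.18, and Apoe between Kyoto days 3 and 1 was 0.019 against -0.15. Without both named Wistar arrays Apoa1 M00001_i_at between Wistar days 14 and 3 was -0.52 against 0.02. The causes were not tested. The count of features called at Wistar day 3 against control was 1 with trimmed means, 1 with every probe set as a feature, 19 with array weights, 5 with only its groups in the fit and 5 without both named arrays, against 0. At Wistar day 14 it was 1 with array weights and 5 without both named arrays, against 0. Between Kyoto days 3 and 1 it was 2 with no filter, against 0, and between days 14 and 3 it was 1 with no filter and 1 with array weights, against 0. Between Kyoto days 14 and 1 it was 3 with no filter, 4 with every probe set as a feature, and 0 with array weights and 0 with only its groups, against 1. For fed Kyoto against fed Wistar it was 1 with no filter, 39 with a stricter filter on low features, 135 with array weights, 21 with the lot as a block and 103 with only its groups, against 62. With arrays left out in turn, the counts ran from 0 to 6 at Wistar day 3, 0 to 7 at Wistar day 14 (both highest without Wistar day 14 replicate 3), 0 to 73 between Kyoto days 3 and 1 and 0 to 162 between days 14 and 1 (both highest without Kyoto day 1 replicate 2), 0 to 1 between days 14 and 3, and 13 to 92 between the strains (lowest without Kyoto day 14 replicate 1, highest without Wistar control 2). Likewise, between Wistar days 14 and 3 Apoa1 ran from -0.65 to 0.061 and M00001_i_at from -0.56 to 0.60. Between Kyoto days 3 and 1 Apob ran from -0.49 to 1.26 and AA997806 from -0.66 to 2.11, and between days 14 and 1 AA997806 ran from -0.19 to 2.58. Between Kyoto days 14 and 3 Apob ran from -0.052 to 1.19 and U53873cds_at from -0.019 to 3.15, and between the strains U53873cds_at ran from -1.57 to 0.015. No paired analysis was possible because the labels give the groups no shared replicate numbers. The brightest members lie at the top of each array, where scaling limits what can be seen, and the dimmest Apob sets lie at the floor.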
